A study of Mus musculus with 6 samples.

Results

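Bcl11b-positive cells without Zbtb16 are the cells, in cultures of bone marrow progenitors, that carried at least 2 UMIs (unique molecular identifiers, each 1 captured RNA molecule) of Bcl11b and 0 of Zbtb16. They were selected on these 2 measured counts alone. Only cells in which 200 or more genes were seen, with no more than 2000 UMIs and a mitochondrial share of UMIs of 30% or less, were considered. The rule held for 1892 of 60671 cells (3.12%).

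The study asked how the time at which Bcl11b is switched on divides progenitors between the T-cell and the innate lymphoid cell (ILC) fates, using mice that lack a distal timing enhancer (TE) of the gene. C57BL/6 mice of both sexes, 2 to 4 months old, gave bone marrow that was pooled from 6 to 8 mice per batch. WT mice were Bcl11b YFP/YFP and ΔTE mice carried the enhancer deletion on both YFP-tagged copies, so every library came from cells with a fluorescent reporter in both alleles. Kit-enriched progenitors grown on OP9-DL1, a mouse stromal line that presents a Notch ligand, were sorted as DN1 (CD44+ CD25−), DN2a (CD44+ CD25+ Bcl11b−) or DN2b (CD44+ CD25+ Bcl11b+), re-cultured on the same stroma with cytokines for 4 days, and profiled by combinatorial-indexing single-cell RNA sequencing (sci-RNA-seq3). Each of the 6 conditions is 1 library, so no condition has a replicate, and the 3 libraries of a genotype shared a pool of mice.

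Bcl11b encodes a zinc finger transcription factor that thymic progenitors switch on as they commit to the T lineage, and its loss lets them keep progenitor or natural killer (NK)-like programs. Zbtb16 encodes PLZF, a BTB zinc finger factor that marks ILC precursors and innate-like T cells and that Bcl11b represses during commitment. Components of the CD3 complex and the enzymes that assemble antigen receptor genes come on around the same step, before a complete T-cell receptor is present. Notch signalling raises TCF-1 and Gata3 earlier, which the study places days before Bcl11b.

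In the order WT DN1, WT DN2a, WT DN2b, ΔTE DN1, ΔTE DN2a and ΔTE DN2b, which is kept throughout, the libraries held 14419647, 14555100, 8321964, 11926879, 12998440 and 8007395 UMIs in all barcodes. After the filters 10925, 19489, 4968, 10294, 11594 and 3401 cells were left, with a median of 462, 386, 455, 485, 452 and 426 UMIs each. The limits are those that the study states, yet the study counts more cells than were left here, and the reason is not known. The submitters label the molecule as nuclear RNA, and their protocol speaks first of fixed cells and then of nuclei, so that a cell here may stand for a nucleus. WT DN2a stood apart from the other libraries. Its cells had a median of 13.3% mitochondrial UMIs against 22.3, 22.7, 22.7, 20.9 and 23.9% in WT DN1, WT DN2b, ΔTE DN1, ΔTE DN2a and ΔTE DN2b, and the mitochondrial limit removed 2.59% of the barcodes that had met its limits on genes and UMIs, against 26.8 to 56.6% elsewhere. It also gave more of the members than any other library, so the comparisons by edgeR over all cells are also given without it. The list counts and the fits without cells of other lineages or stroma-marker cells were not repeated without it. No cell barcode was shared between libraries (0 shared).

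The members numbered 197, 800, 456, 65, 225 and 149. They made up 1.80, 4.10, 9.18, 0.631, 1.94 and 4.38% of the kept cells of their library, and with a single library per condition these shares carry only exact Clopper-Pearson 95% intervals, of 1.56 to 2.07, 3.83 to 4.39, 8.39 to 10.02, 0.488 to 0.804, 1.70 to 2.21 and 3.72 to 5.12%. Within each genotype the share was lowest from DN1 and highest from DN2b. From the same start it was lower in ΔTE than in WT for all 3 starts. The intervals cover the counting of cells alone and not the spread between cultures, so they do not test genotype. The 3 reverse-transcription wells of a library, which divide 1 culture and are not replicates, spanned 1.65 to 2.04, 3.88 to 4.32, 7.74 to 9.85, 0.530 to 0.754, 1.11 to 2.44 and 3.66 to 4.88%. These shares are set by the genes of the rule and describe the selection.

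**Figure D1:**
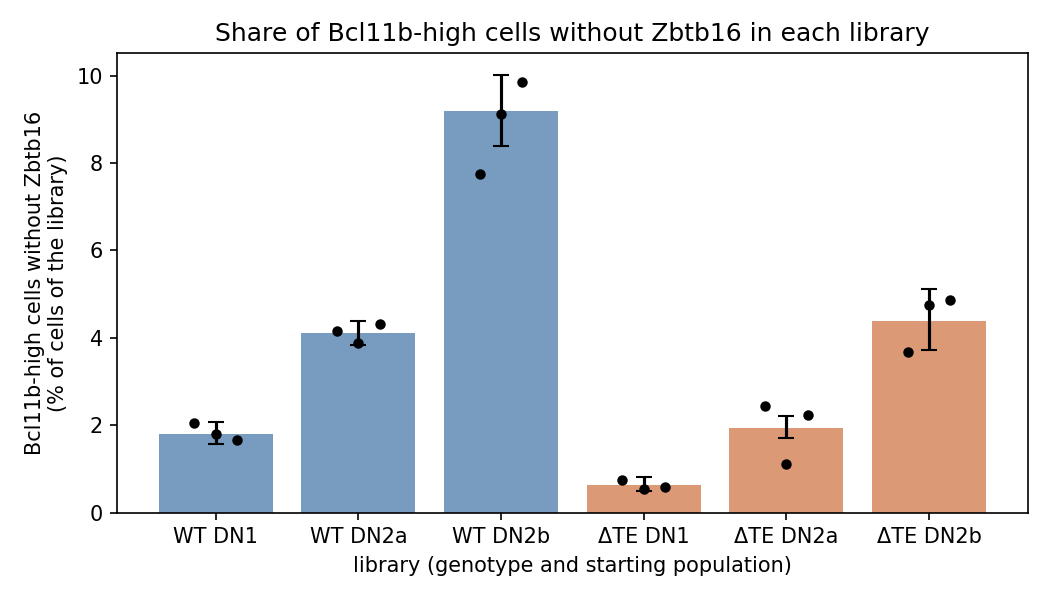
Share of kept cells (%) that were Bcl11b-positive without Zbtb16 in each of the 6 libraries, with exact 95% intervals as error bars and the 3 reverse-transcription wells as points. The share was lower from DN1 than from DN2b starts in both genotypes, 1.80 against 9.18% in WT and 0.631 against 4.38% in ΔTE.

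Most members stood just inside the threshold: 1388 (73.4%) had 2 Bcl11b UMIs, 369 (19.5%) had 3 and 135 (7.14%) had 4 or more, up to 7. Just outside it were 5761 cells with 1 Bcl11b UMI and 0 of Zbtb16. Members with at least 3 Bcl11b UMIs were 21.3, 25.1, 33.8, 21.5, 22.2 and 28.9% of the members of each library, with the highest share in WT DN2b. Members were deeper than cells with neither gene, with a median of 618, 487, 562, 642, 616 and 499 UMIs against 443, 369, 426.5, 465, 426 and 399. The main tests therefore compare members with cells of like depth in the same library, and tests without that matching were run as alternatives.

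Bcl11b itself, which chose the members, was read at 243, 593, 889.7, 92.2, 273 and 547 UMIs per 1000000 UMIs (CPM) in kept cells outside the stroma and myeloid sets of their library. Background Bcl11b can come from free RNA or from a stroma cell captured with a progenitor, and these were not told apart. It was gauged in 3040 stroma cells (at least 3 UMIs of stroma markers, median 552 UMIs), which should lack the gene. There 5.72% of cells had a Bcl11b UMI and 28 (0.921%) met the rule, against 14.9% and 1861 (3.25%) of the 57241 other cells with a median of 429 UMIs. In 390 myeloid cells (median 559 UMIs) the shares were 1.28% and 0.769%. By library, 4.96, 6.95, 8.92, 0.649, 3.21 and 6.67% of stroma cells had a Bcl11b UMI against 10.3, 19.9, 32.6, 4.22, 11.4 and 20.2% of other cells, so stroma cells were lower in all 6 libraries although they were deeper over all libraries. The rule itself was met by 1.24, 0.911, 2.55, 0.649, 0.583 and 0% of stroma cells (3, 16, 4, 1, 4 and 0 cells) against 1.83, 4.42, 9.40, 0.639, 2.03 and 4.44% of other cells. In ΔTE DN1 the other cells were thus not above the stroma level, and in WT DN1 they were little above it. With so few stroma cells per library the part of free RNA or doublets in the members was not tested.

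Detection of Zbtb16, the other side of the rule, was also read at a fixed depth, with every cell thinned to 300 UMIs. Zbtb16 was then found in 8.51% of 46364 cells with no Bcl11b UMI, 6.74% of 4034 with 1 and 6.74% (53 cells) of 786 with 2 or more. The libraries differed in direction. From no Bcl11b UMI to 2 or more, the share went from 6.56 to 10.5% in WT DN1, 6.43 to 3.99% in WT DN2a, 4.86 to 6.97% in WT DN2b, 10.04 to 20% in ΔTE DN1, 12.4 to 7.37% in ΔTE DN2a and 11 to 10.3% in ΔTE DN2b. It was thus lower with 2 or more Bcl11b UMIs in WT DN2a, ΔTE DN2a and ΔTE DN2b and higher in the other libraries. No test was made, since these are the genes of the rule.

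Marker genes that the rule did not use were read in members and comparison cells, with each cell thinned to 300 UMIs. The T-lineage list holds Il2ra, which encodes CD25, a marker by which the starts were sorted. Its share was not read without that gene. A UMI of the T-lineage markers other than Bcl11b was found in 80.2% (78.2 to 82.0) of 1725 members, with the exact 95% interval in brackets, against 58.9% (58.4 to 59.4) of 37439 cells with neither gene. A UMI of the CD3, pre-TCR and signalling genes was found in 43.1% (40.7 to 45.4) of members against 25.7% (25.2 to 26.1). Stroma markers were seen in 5.86% (4.79 to 7.07) of members against 10.9% (10.6 to 11.2), and myeloid markers in 1.51% (0.987 to 2.20) against 5.84% (5.60 to 6.08). Markers of ILC and NK cells other than Zbtb16 were present in 37.0% (34.8 to 39.4) of members against 34.6% (34.1 to 35.1). These shares are pooled, and the groups draw on the libraries in different proportions. By library, T-lineage markers were seen in 73.0, 80.6, 83.8, 70.5, 78.2 and 83.7% of members against 41.3, 69.4, 71.8, 44.9, 67.3 and 73.7% of cells with neither gene. The T-lineage and CD3 shares were higher in members of 6 of 6 libraries and the stroma and myeloid shares lower in 6 of 6, by little for stroma in ΔTE DN2b. ILC and NK markers were higher in members of WT DN1, WT DN2a, WT DN2b and ΔTE DN1 and lower in ΔTE DN2a and ΔTE DN2b. The intervals treat cells as independent, and no test was made. The constant regions of the T-cell receptor (Trac, Trbc1, Trbc2, Trdc, Tcrg-C1, Tcrg-C2 and Tcrg-C4) were not found by symbol in the files and were not analysed here.

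T-lineage markers other than Bcl11b summed to 4288, 6207, 6174, 4540.3, 5215 and 6827 CPM in members and to 2217, 4626, 4718, 2340.3, 4057 and 4927 in depth-matched cells with neither gene. The members were higher in 6 of 6 libraries, and Il2ra was the most abundant of the list in every library of both groups. In members Il2ra alone read 2539, 3722, 3009, 2458, 3024 and 3241, and the list was not summed without it. Levels of genes are CPM of the summed cells of a library, and changes in tested genes are log2 fold changes of members over the comparison cells.

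To ask what goes with Bcl11b UMIs among cells with 0 of Zbtb16, 1867 members were compared with 7253 cells with 0 UMIs of both genes, drawn from the same library at like depth. At these depths a count of 0 need not mean that a gene was off. From WT DN2b, a start sorted as Bcl11b+, 62.9% of kept cells had 0 UMIs of both genes. Comparison cells may therefore include cells that express Bcl11b, and members may include cells that express Zbtb16. Of 9053 genes tested with edgeR's quasi-likelihood test, with the library as a block and Benjamini-Hochberg adjustment over all genes, 667 (7.37%) passed an adjusted p of 0.05. Members were higher for 153 (1.69%) and lower for 514 (5.68%), and 275 of the 667 went one way in all 6 libraries. The median log2 fold change over all genes tested was −0.031. This count fell strongly without WT DN2a and without cells that had a UMI of other lineage markers. Without WT DN2a, 249 of 7206 genes (3.46%) passed, 100 higher and 149 lower. Without cells that had a UMI of any stroma, myeloid, antigen-presenting, mast or B cell marker, 42 of 7388 (0.568%) passed, 27 higher (0.365%) and 15 lower (0.203%), with 65.4% of members and 62.2% of comparison cells kept. Leaving out only cells with a stroma marker UMI, a choice made after seeing the data, gave 104 of 8299 (1.25%), 73 higher (0.88%) and 31 lower (0.374%). That kept 90.6% of members and 87.3% of comparison cells. The wider filter, called cells of other lineages below, removed any cell with a UMI of Cpa3, a mast cell marker. Members carried Cpa3 at 558, 553, 499, 797, 557 and 419 CPM against 332, 548, 360, 467, 593 and 477. It left 1207 matched members, and the part of this loss of cells in the lower count was not tested.

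Most genes higher in members kept their direction without those cells. Of the 153, 149 of the 152 still tested stayed higher without cells of other lineages, and 26 passed in both fits (17.0% of the 153 and 96.3% of the 27). Of the 514 lower genes only 150 were still tested, 127 of them stayed lower, and 11 passed in both (2.14% of the 514 and 73.3% of the 15). With the library as a block, the p-values measure how the gap between the groups varied over the 6 libraries. These are unlike conditions of genotype and start, none with a replicate, and the variation may be technical as well as biological. Of the 64 genes that the naming rule gave for this comparison, 50 still passed without WT DN2a, 41 by DESeq2, 24 without the library block, 29 without stroma-marker cells and 14 without cells of any other lineage. Cd3d, Gfra1 and Ctla4 passed under each of these alternatives. Among the genes that did not pass without the library block, in the same direction, were Cd3g, Themis, Thy1, Il2ra, Runx1, Cd163l1 and Bcl11a. Dntt, Tcf7, Lck, Ets1, Id3, Cd34, Mpo and Gzma were among those that did not pass by DESeq2, also in the same direction. Without WT DN2a the changes were 1.28 for Cd3g, 1.82 for Cd3d, 1.39 for Themis, 0.81 for Thy1, 0.44 for Runx1, 1.31 for Gfra1, −1.35 for Gzmb, −1.22 for Tyrobp and −1.06 for Bcl11a, and each of them passed. No longer passing, in the same direction, were Dntt (0.85 from 1.03), Ets1 (0.52 from 0.73), Id3 (−1.36 from −1.64), Lck (0.46 from 0.45), Maf (−0.68 from −0.92), Mki67 (0.27 from 0.26), Mpo (−0.99 from −1.15), Tcf7 (0.36 from 0.33) and Zeb2 (−0.51 from −0.51). The changes of Lck, Mki67, Tcf7 and Zeb2 were as large as before. Gbp4, Cdkn3, Nmnat2, Cped1 and Gpx8 had too few UMIs to be tested.

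In the list of T-lineage markers 14 of 16 genes were in the files and 12 were tested without Bcl11b, of which 8 rose and 0 fell, with a median of 0.71. Without cells of other lineages 3 of 10 rose, Cd3g, Cd3d and Thy1, and 0 fell (median 0.58).

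Among the chains of the CD3 complex, Cd3g (ENSMUSG00000002033), the gamma chain, was the most abundant and stood at 223, 636, 776, 377, 352 and 752 in members against 62.8, 253, 422, 13.3, 117 and 445 in cells with neither gene. Members were higher in every library, though the lowest members (WT DN1) lay below cells with neither gene from WT DN2b. The log2 fold change was 1.27 ± 0.110 (SE; edgeR adjusted p = 6.00e-28), higher in 6 of 6 libraries, and 1.26 (edgeR adjusted p = 3.78e-21, higher in 6 of 6 libraries) without cells of other lineages. Without the library block Cd3g kept a log2 fold change of 1.34 but did not pass. Cd3d (ENSMUSG00000032094), the delta chain, read 22.3, 69.5, 163, 0, 38.4 and 197 in members against 4.49, 26.6, 32.7, 4.45, 15.5 and 65.9. It was at 0 in members from ΔTE DN1, where a count of 0 allowed up to 66.4, and higher in members of every other library. The fitted log2 change was 1.63 ± 0.257 (SE; edgeR adjusted p = 1.70e-08), higher in 5 of 6 libraries. Cd247, which encodes the zeta chain shared by CD3 and NK receptors, ranged over 171 to 369.7 (median 296) in members and 40.4 to 300.4 (median 138) in cells with neither gene, and rose by 0.68 (edgeR adjusted p = 1.83e-05, higher in 6 of 6 libraries).

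Of the signalling proteins beneath CD3, Themis, Lat, Prkcq and Lck were higher, and only Themis of these stayed so by test without cells of other lineages. Themis, a thymocyte protein that tunes receptor signalling, read 74.5, 67.2, 114, 155, 154 and 136 in members against 7.48, 36.5, 45.8, 17.8, 74.8 and 90.5. Every library had more in members, and the gap was widest, as a ratio, from the DN1 starts. Its log2 fold change was 1.21 ± 0.212 (SE; edgeR adjusted p = 7.37e-07), higher in 6 of 6 libraries. Lat, the adaptor that gathers the signalling complex, read 81.9, 186, 235, 66.4, 205 and 320.4 against 58.3, 111, 174, 62.3, 87.7 and 189, a small gap in ΔTE DN1 and a wider one in WT DN2a, ΔTE DN2a and ΔTE DN2b. In log2 terms the change was 0.71 ± 0.150 (SE; edgeR adjusted p = 8.45e-05), higher in 5 of 6 libraries by the fitted comparison. Prkcq, a protein kinase C of T cells, rose by 0.85 (edgeR adjusted p = 0.000152, higher in 5 of 6 libraries) and Lck, the kinase that phosphorylates CD3, by 0.45 (edgeR adjusted p = 0.0126, higher in 5 of 6 libraries). Of the CD3, pre-TCR and signalling list, 13 of 16 genes were in the files and 11 were tested, of which 7 rose and 0 fell, with a median log2 fold change of 0.71 beside −0.031 over all genes. Without cells of other lineages 3 of 11 passed, Cd3g, Cd3d and Themis, with a median of 0.59. Lat (0.61, edgeR adjusted p = 0.0923, higher in 5 of 6 libraries), Cd247 (0.51, edgeR adjusted p = 0.119, higher in 5 of 6 libraries), Prkcq (0.59, edgeR adjusted p = 0.442, higher in 6 of 6 libraries) and Lck (0.34, edgeR adjusted p = 0.650, higher in 5 of 6 libraries) did not.

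Dntt, terminal transferase, which adds untemplated bases at receptor gene joints, was the gene of the recombination list that passed. It read 14.9, 73.9, 117, 22.1, 51.2 and 222 in members against 15.0, 28.4, 88.4, 8.90, 27.1 and 70.0, nearly equal in WT DN1 and highest in members from ΔTE DN2b. On the log2 scale this was 1.03 ± 0.237 (SE; edgeR adjusted p = 0.000466), higher in 6 of 6 libraries once library sizes were scaled. Of the 3 recombination genes tested, 1 rose and 0 fell (median 0.94). Dntt was the 1 gene still tested without cells of other lineages and did not pass, at 0.93 (edgeR adjusted p = 0.0880, higher in 6 of 6 libraries).

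**Figure D2:**
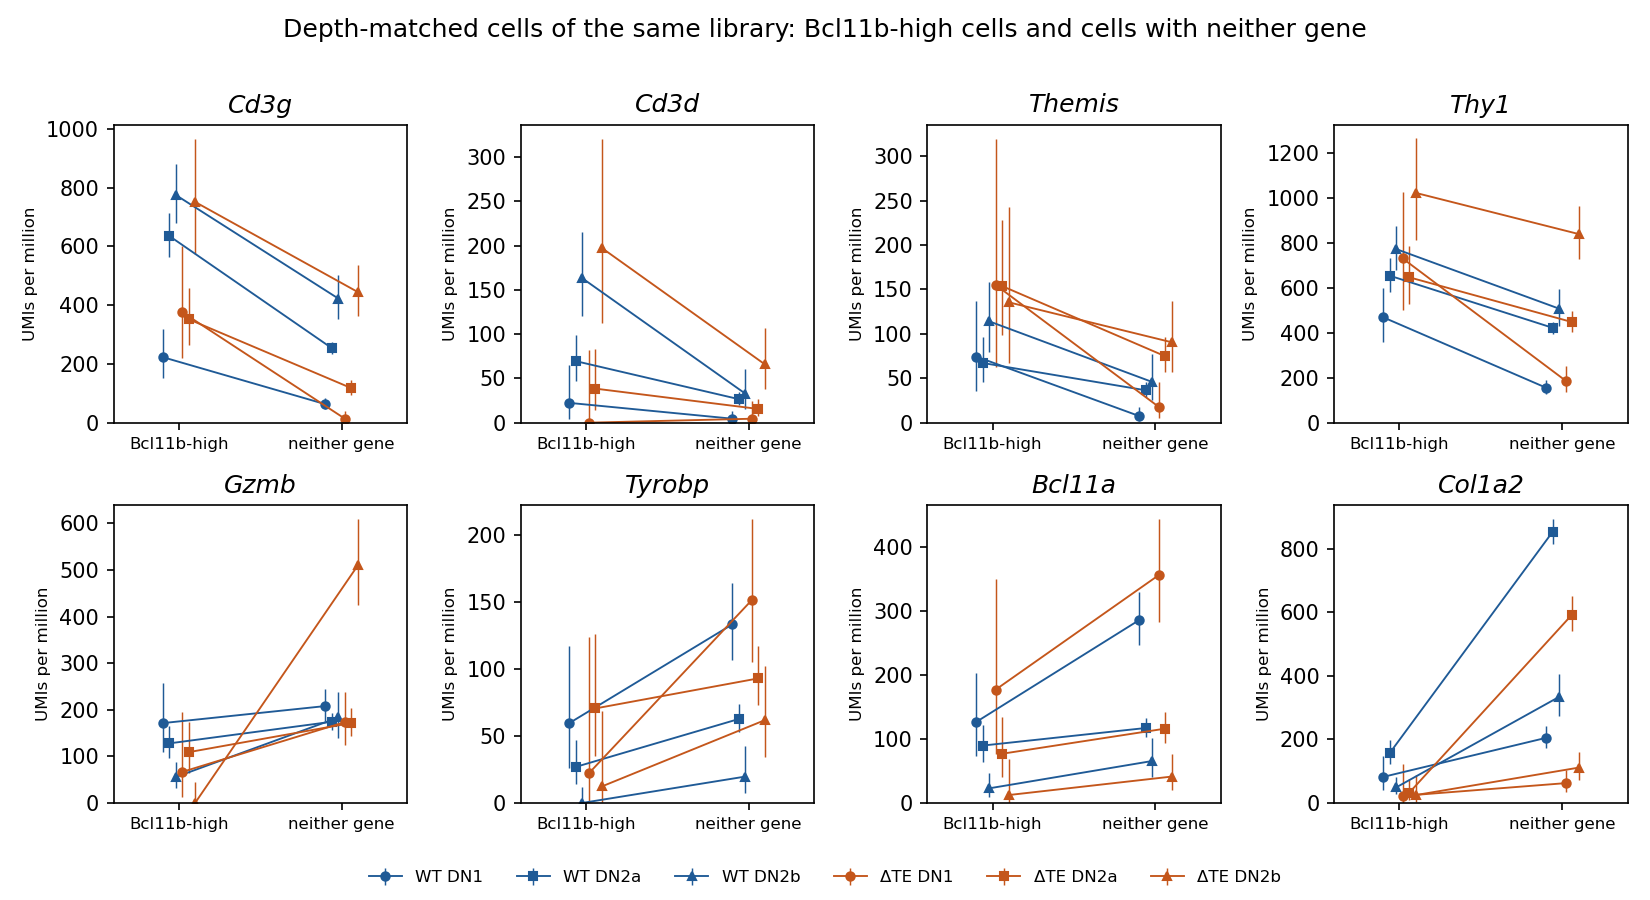
Levels of Cd3g, Cd3d, Themis, Thy1, Gzmb, Tyrobp, Bcl11a and Col1a2 (CPM) in Bcl11b-positive cells without Zbtb16 and in depth-matched cells with neither gene, for each of the 6 libraries, with exact Poisson 95% intervals as bars. Cd3g, Themis and Thy1 were higher in members of all 6 libraries, and Gzmb, Tyrobp, Bcl11a and Col1a2 were lower.

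At the cell surface, Thy1, a glycoprotein of thymocytes that early progenitors gain, read 469, 654, 773, 731, 647 and 1023 in members against 156, 422, 508, 187, 448 and 839.6. Members were higher in each library, most clearly from the DN1 starts. The change in log2 units was 0.73 ± 0.0956 (SE; edgeR adjusted p = 3.21e-12), higher in 6 of 6 libraries, and 0.45 (edgeR adjusted p = 0.0127, higher in 6 of 6 libraries) without cells of other lineages. Il2ra, which encodes CD25, the marker that opens the DN2 stage, read 2539, 3722, 3009, 2458, 3024 and 3241 against 1484, 3106, 2603, 1593, 2686 and 2280.1, a gap in all libraries that was widest, as a ratio, from DN1 starts. It rose by 0.38 (edgeR adjusted p = 2.96e-06, higher in 6 of 6 libraries). Cd24a, a surface marker of immature thymocytes, rose by 0.68 (edgeR adjusted p = 3.37e-07, higher in 6 of 6 libraries), and Il7r, the receptor that sustains early T cells, by 0.66 (edgeR adjusted p = 0.000474, higher in 6 of 6 libraries). Cd44, the adhesion receptor that progenitors lose later, fell by 0.51 (edgeR adjusted p = 0.0409, lower in 6 of 6 libraries). In the list of early thymocyte surface markers 4 of 11 tested genes rose and 1 fell (median 0.23). Of the cytokine receptor list 2 of 8 rose and 0 fell (median 0.040). Without cells of other lineages Thy1 alone of 10 tested surface markers rose and 0 fell (median 0.19), and 0 of 7 cytokine receptors passed (median 0.24). Il2ra (0.24, edgeR adjusted p = 0.208, higher in 6 of 6 libraries), Cd24a (0.41, edgeR adjusted p = 0.196, higher in 5 of 6 libraries), Il7r (0.24, edgeR adjusted p = 0.911, higher in 4 of 6 libraries) and Cd44 (−0.67, edgeR adjusted p = 0.328, lower in 6 of 6 libraries) did not pass in that fit. The change in Cd44 was no smaller there, while that in Il7r was.

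Notch1, the receptor whose signal starts T-cell specification, read 275, 406, 336, 377, 346 and 456 in members against 206, 263, 236, 160.2, 212 and 272. The gap was present in all libraries and widest in ΔTE DN1. The log2 fold change was 0.63 ± 0.115 (SE; edgeR adjusted p = 2.63e-06), higher in 6 of 6 libraries. The list of Notch receptors and targets had 3 of 10 tested genes higher and 0 lower, with a median of 0.19. Without cells of other lineages 0 of 10 passed (median 0.24), and Notch1 was at 0.36 (edgeR adjusted p = 0.357, higher in 5 of 6 libraries).

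Among transcription factors, Runx1, a partner of Bcl11b in early T cells, read 1824, 1900.2, 1760.3, 1617, 1742 and 1528 in members against 1358, 1546, 1365, 1224, 1185 and 1140.1. Members were above cells with neither gene in every library, and the lowest members (ΔTE DN2b) lay just below cells with neither gene from WT DN2a. The fitted log2 change was 0.39 ± 0.0752 (SE; edgeR adjusted p = 1.08e-05), higher in 6 of 6 libraries, and 0.37 (edgeR adjusted p = 0.00460, higher in 6 of 6 libraries) without cells of other lineages. Bach2, a repressor that holds lymphocytes in an undifferentiated state, read 253, 249, 222, 266, 249.8 and 259 against 105, 150.4, 141, 48.9, 128 and 156, with no overlap between the groups over the 6 libraries. Its log2 fold change was 0.90 ± 0.136 (SE; edgeR adjusted p = 4.13e-09), higher in 6 of 6 libraries, and 0.59 (edgeR adjusted p = 0.0601, higher in 5 of 6 libraries) without cells of other lineages, which did not pass. Tcf7, which encodes TCF-1, the early target of Notch that opens T-lineage genes, read 514, 511, 538, 443, 468 and 542 against 302, 416, 472, 325, 361 and 535, nearly equal in ΔTE DN2b. It rose by 0.33 (edgeR adjusted p = 0.0203, higher in 5 of 6 libraries).

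Ets1 rose by 0.73 (edgeR adjusted p = 0.00605, higher in 5 of 6 libraries), Satb1, a chromatin organizer of thymocytes, by 0.56 (edgeR adjusted p = 8.98e-05, higher in 5 of 6 libraries), Tcf12, the E protein HEB, by 0.38 (edgeR adjusted p = 0.000786, higher in 6 of 6 libraries) and Myb by 0.37 (edgeR adjusted p = 0.000673, higher in 5 of 6 libraries). Of the T-lineage specification factors 6 of 14 tested genes rose and 0 fell, with a median of 0.34, and without cells of other lineages 1 of 13, Runx1, passed, with a median of 0.21. The list of Ikaros, Runx and BTB factors had 2 of 9 higher and 0 lower (median 0.054), and 1 of 9 without cells of other lineages. The E proteins and Id factors had 1 of 6 higher and 1 lower, Id3, an inhibitor of E proteins (median −0.29; Id3 −1.64, edgeR adjusted p = 1.03e-05, lower in 5 of 6 libraries). With cells of other lineages left out, 0 of 4 passed and the median was 0.085, Id3 had too few UMIs to be tested and Tcf12 did not pass. Gata3, a factor that both T cells and ILC2 need, did not pass (0.35, edgeR adjusted p = 0.123, higher in 5 of 6 libraries).

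Gfra1 (ENSMUSG00000025089), a co-receptor for glial-derived neurotrophic factor, was the gene outside the T-lineage lists with the smallest adjusted p among the 10 named for the largest rise. It read 134, 215, 342, 111, 192 and 493 in members against 26.9, 118, 180.1, 40.0, 87.7 and 173, higher in members of every library and highest in ΔTE DN2b. In log2 terms the change was 1.12 ± 0.143 (SE; edgeR adjusted p = 6.15e-13), higher in 6 of 6 libraries, and 0.87 (edgeR adjusted p = 0.000137, higher in 6 of 6 libraries) without cells of other lineages. Ctla4, an inhibitory receptor of T cells, read 44.7, 78.4, 114, 66.4, 89.7 and 160.2 against 20.9, 52.2, 52.4, 26.7, 42.6 and 65.9, higher in members of each library. On the log2 scale this was 0.91 ± 0.217 (SE; edgeR adjusted p = 0.000765), higher in 6 of 6 libraries, and 1.23 (edgeR adjusted p = 0.00276, higher in 6 of 6 libraries) without those cells. Plcl1, a phospholipase C relative without catalysis, rose by 1.03 ± 0.211 (SE; edgeR adjusted p = 4.60e-05), higher in 6 of 6 libraries. Gbp4, an interferon-induced GTPase, rose by 1.29 ± 0.365 (SE; edgeR adjusted p = 0.00827), higher in 6 of 6 libraries, in a family of closely similar genes whose reads may not be told apart. Cdkn3, a cell-cycle phosphatase, rose by 1.15 ± 0.363 (SE; edgeR adjusted p = 0.0244), higher in 6 of 6 libraries, and Ccnjl, a cyclin J relative, by 1.03 ± 0.267 (SE; edgeR adjusted p = 0.00270), higher in 6 of 6 libraries. Gbp4, Cdkn3 and Ccnjl did not pass by DESeq2, without the library block or without cells of other lineages, and Gbp4 and Ccnjl did not without stroma-marker cells either. Of these alternatives Plcl1 failed only the one without the library block.

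A pair of scavenger receptor genes that gamma-delta T cells express were also higher. Cd163l1 read 67.0, 82.9, 134, 0, 199 and 333 in members against 7.48, 28.8, 75.3, 8.90, 80.0 and 300.4, with 0 in members from ΔTE DN1, which allowed up to 66.4, and a narrow gap in ΔTE DN2b. The change in log2 units was 1.05 ± 0.189 (SE; edgeR adjusted p = 1.94e-06), higher in 5 of 6 libraries. The related 5830411N06Rik read 7.45, 101, 299.9, 22.1, 115 and 345 against 5.98, 37.4, 189.9, 0, 31.0 and 177, higher in each library and above 100 only in DN2 starts, with 0 in cells with neither gene from ΔTE DN1, which allowed up to 13.3. It rose by 1.11 ± 0.185 (SE; edgeR adjusted p = 1.29e-07), higher in 6 of 6 libraries. Sox13, a factor of gamma-delta T cells, rose by 1.04 (edgeR adjusted p = 0.00152, higher in 5 of 6 libraries), while Maf, which the same lineage uses, fell by 0.92 (edgeR adjusted p = 0.00727, lower in 5 of 6 libraries). Of the gamma-delta list 5 of 10 genes were in the files and 3 were tested, of which 2 rose and 1 fell (median 1.04). Once cells of other lineages were left out, 1 rose and 0 fell (median 0.45). Cd163l1 and 5830411N06Rik still passed then, while Sox13 (0.45, edgeR adjusted p = 0.892, higher in 5 of 6 libraries) and Maf (−0.33, edgeR adjusted p = 0.962, lower in 4 of 6 libraries) did not. The receptor constant genes that define the lineage were not analysed here.

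Genes of cytotoxic and NK cells went both ways. Gzmb (ENSMUSG00000015437), granzyme B, read 171, 128, 55.4, 66.4, 109 and 0 in members against 208, 174, 183, 174, 172 and 510.4. Members were lower in every library, and in ΔTE DN2b they had 0 UMIs, which allowed up to 37.0. The log2 fold change was −1.02 ± 0.155 (SE; edgeR adjusted p = 5.36e-09), lower in 6 of 6 libraries, and −1.45 (edgeR adjusted p = 1.18e-10, lower in 6 of 6 libraries) without cells of other lineages. By DESeq2 (−1.43) and without the library block (−1.23) Gzmb kept its direction but did not pass. Gzma, granzyme A, read 789, 849, 636, 1285, 1403 and 1183 against 452, 729, 537, 863, 1188 and 1136, higher in members of each library but by little in ΔTE DN2b. It rose by 0.31 (edgeR adjusted p = 0.00567, higher in 6 of 6 libraries), but without cells of other lineages its log2 fold change was −0.019 and did not pass.

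Tyrobp and Fcer1g encode the signalling adaptors DAP12 and FcRγ, which NK, ILC and myeloid cells share. Tyrobp read 59.6, 26.9, 0, 22.1, 70.5 and 12.3 in members against 133, 62.6, 19.6, 151, 92.9 and 61.7, lower in each library, with 0 UMIs in members from WT DN2b, which allowed up to 9.78. The fitted log2 change was −1.23 ± 0.262 (SE; edgeR adjusted p = 0.000104), lower in 6 of 6 libraries, and −1.70 (edgeR adjusted p = 0.00246, lower in 6 of 6 libraries) without cells of other lineages. Fcer1g read 59.6, 87.4, 13.0, 44.3, 192 and 61.6 against 145, 118, 36.0, 200.2, 227 and 193, with the smallest gap, as a ratio, in ΔTE DN2a. It changed by −0.73 ± 0.179 (SE; edgeR adjusted p = 0.00117), lower in 6 of 6 libraries, and by −1.13 (edgeR adjusted p = 0.000453, lower in 6 of 6 libraries) without those cells. Fcer1g did not pass by DESeq2 (−0.95) or without the library block (−1.02), and Tyrobp did not pass without the block (−1.58). Over the list of NK receptors and granule genes 1 of 7 tested genes rose and 3 fell (median −0.14), and without cells of other lineages 0 rose and 3 fell of 6 (median −0.88). Of the ILC and NK markers 1 of 8 rose and 1 fell (median −0.41), and 0 rose and 1 fell of 6 without those cells (median −0.33). Of the ILC and NK transcription factors 0 rose and 1 of 5 fell (median −0.51), namely Zeb2, a transcriptional repressor of mature NK and myeloid cells, at −0.51 (edgeR adjusted p = 0.0155, lower in 6 of 6 libraries). Its log2 fold change without cells of other lineages was 0.13 and did not pass, nor did any other of the 5 (median −0.11).

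Progenitor genes that passed were lower in members. Bcl11a, the relative of Bcl11b that progenitors and B cells use, read 127, 89.6, 22.8, 177, 76.9 and 12.3 in members against 286, 117, 65.5, 356, 116 and 41.2. Members were lower in all libraries, and both groups were highest from DN1 starts. Its log2 fold change was −0.82 ± 0.181 (SE; edgeR adjusted p = 0.000219), lower in 6 of 6 libraries, and −1.02 (edgeR adjusted p = 0.0111, lower in 6 of 6 libraries) without cells of other lineages. Mef2c, a factor of lymphoid and myeloid progenitors, fell by 1.27 (edgeR adjusted p = 0.0112, lower in 4 of 6 libraries), and Cd34, a stem and progenitor surface marker, by 0.78 (edgeR adjusted p = 0.0471, lower in 6 of 6 libraries). The progenitor transcription factors had 0 of 9 tested genes higher and 2 lower (median −0.26), and the multipotent progenitor markers 0 of 7 higher and 3 lower (median −0.69). In each list Bcl11a alone passed without cells of other lineages, where Cd34 (−0.85, edgeR adjusted p = 0.561, lower in 6 of 6 libraries) and Mef2c (−0.94, edgeR adjusted p = 0.748, lower in 5 of 6 libraries) kept their direction.

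The 10 genes with the smallest log2 fold changes under the naming rule were Nmnat2, Cped1, Gpx8, Eya4, Col4a1, Col6a2, Bmp4, Samd4, Ebf1 and Tead1, from −4.40 to −3.22. Col6a2, a collagen VI chain and the most abundant of them, read 22.3, 35.9, 9.78, 0, 19.2 and 0 in members against 76.3, 368, 138, 13.3, 344 and 86.4. Members were lower in each library and at 0 in ΔTE DN1 and ΔTE DN2b, where a count of 0 allowed up to 66.4 and 37.0, so that the gap in ΔTE DN1 was not detectable at this depth. In log2 terms the change was −3.46 ± 0.232 (SE; edgeR adjusted p = 5.23e-47), lower in 6 of 6 libraries. All 9 tested stroma markers fell, with a median of −2.58. The 12 stroma markers summed to 305, 607, 215, 177, 269 and 98.6 in members and 764, 3386, 1542, 276, 2549 and 597 in cells with neither gene, lower in members of 6 of 6 libraries. Col1a2 was the most abundant of them in cells with neither gene of 5 libraries, with Col1a1 in ΔTE DN2b, and Lum was at 0 in both groups of all 6 libraries. In members Col1a2 led in the 3 WT libraries, Sparc in ΔTE DN2a and Fn1 in ΔTE DN2b, while Col1a1, Cxcl12 and Sparc tied in ΔTE DN1 at 2 UMIs each. The part of stroma cells in the genes that fell was not tested. None of those 10 genes had enough UMIs to be tested without cells of other lineages.

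Markers of myeloid, antigen-presenting and B cells were sparse in members. The 15 myeloid markers summed to 246, 58.3, 26.1, 133, 32.0 and 37.0 in members and 543, 129, 81.9, 396, 143 and 74.1 in cells with neither gene, with Csf1r, Itgam and Cebpa at 0 in members of all 6 libraries. Of 5 tested, 0 rose and 2 fell (median −1.57): Lyz2, lysozyme, at −1.68 (edgeR adjusted p = 0.0156, lower in 6 of 6 libraries) and Mpo, myeloperoxidase, at −1.15 (edgeR adjusted p = 0.0123, lower in 6 of 6 libraries). Tyrobp and Fcer1g, which myeloid cells also express, were lower in members without those cells as well. No antigen-presenting marker was tested (0 of 8). The mast cell and basophil list was not sparse, at 419 to 819 (median 558) in members. In cells with neither gene it summed to 349 to 611 (median 496). Its 1 tested gene, Cpa3, did not pass (0.22). The B cell list had 1 tested gene, Ebf1, which fell.

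Proliferation and survival genes were read beside the share of all genes that passed, 7.37% (1.69% higher and 5.68% lower). Among S and G2/M genes 2 of 19 rose and 0 fell (median 0.10), Cenpf, a kinetochore protein, by 0.42 (edgeR adjusted p = 0.0128, higher in 5 of 6 libraries) and Mki67 by 0.26 (edgeR adjusted p = 0.0414, higher in 5 of 6 libraries). Without cells of other lineages 0 of 19 rose and 1 fell (median −0.047). Neither Cenpf nor Mki67 passed then, and Pcna, the sliding clamp of replication, was the gene that fell, by 0.83 (edgeR adjusted p = 0.0459, lower in 6 of 6 libraries). In the Bcl2 family 1 of 7 rose and 0 fell (median −0.10), Bcl2 itself, which blocks apoptosis, by 0.42 (edgeR adjusted p = 3.07e-06, higher in 6 of 6 libraries), and 0 of 6 passed without cells of other lineages.

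Cells without Zbtb16 were then ordered by their Bcl11b count, as a description at each cell's own depth. With 0, 1, 2 and 3 or more Bcl11b UMIs (45330, 5761, 1388 and 504 cells), Cd3g read 178, 413, 596 and 572 over all libraries. Over all libraries it climbed up to 2 UMIs and was no higher beyond. Thy1 read 384, 609, 703 and 649, Arpp21, a cAMP-regulated phosphoprotein of thymocytes, 804, 1209, 1481 and 1593, and Runx1 1353, 1637, 1719 and 1909.7 in the same order. In the other direction Gzmb read 223, 154, 124 and 52.3, Tyrobp 119, 39.0, 29.5 and 22.0 and Col1a2 332, 141, 95.4 and 79.8. Over all libraries, cells with 1 UMI, just outside the threshold, lay between cells with none and cells with 2 for each of these genes. By library that held in all 6 for Cd3g, Thy1 and Arpp21, in 5 for Runx1 (not ΔTE DN1), Tyrobp (not ΔTE DN2a) and Col1a2 (not ΔTE DN1), and for Gzmb only in WT DN2b and ΔTE DN2b. Cd3g stood at 151, 478, 633, 133, 247 and 547 with 1 UMI, at 192, 668, 792, 408, 328 and 870.2 with 2 and at 314, 528, 792, 238, 405 and 489.7 with 3 or more. It was higher with 2 than with 1 in all 6 libraries, and higher again with 3 or more in WT DN1 and ΔTE DN2a alone.

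**Figure D3:**
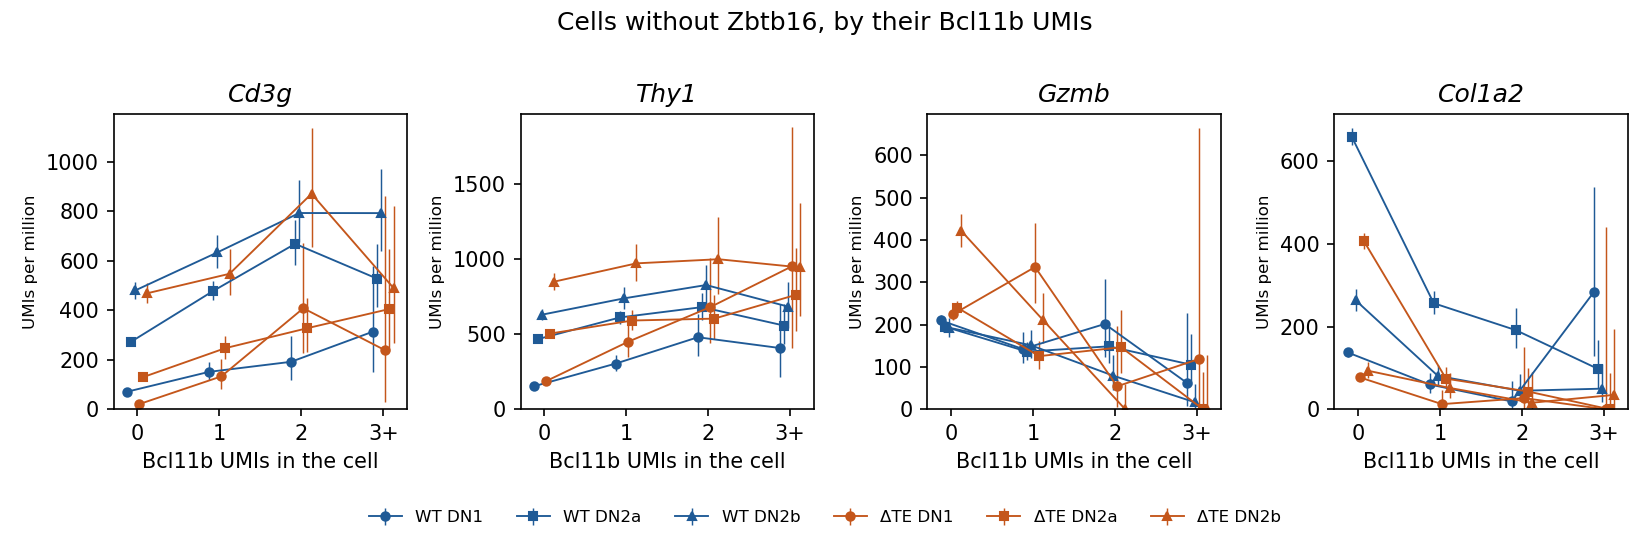
Levels of Cd3g, Thy1, Gzmb and Col1a2 (CPM) in cells without Zbtb16, by the number of Bcl11b UMIs of the cell (0, 1, 2, or 3 and more), for each library. Over all libraries Cd3g went from 178 with none to 596 with 2, and Gzmb from 223 to 52.3 with 3 or more.

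The mirror image of the members is the 1674 cells with at least 2 Zbtb16 UMIs and 0 of Bcl11b, and comparing the groups asks which genes go with UMIs of each regulator. Matched on depth, 1217 members were set against 948 such cells. Of 4753 genes tested, 105 (2.21%) passed edgeR's test, 53 higher (1.12%) and 52 lower (1.09%) in members, and 74 of them went one way in all 6 libraries. Without WT DN2a, 76 of 3429 (2.22%) passed, 37 higher and 39 lower. Leaving out ΔTE DN2a, the library whose absence lowered the count most, left 64. Of 36 named genes 30 passed without WT DN2a, 22 by DESeq2 and 26 without the library block, and 20 under all of these. Without WT DN2a the changes were 3.77 for Cd3g, 1.97 for Gfra1, 1.28 for Arpp21, 0.69 for Runx1, −2.14 for Rora, −1.69 for Id2 and −0.74 for Gata3, and each of them passed, while Frmd6, Sytl3, Cd160, Cpa3 and Mki67 no longer did and Dntt had too few UMIs to be tested. Stroma markers summed to 213, 749.5, 251, 178, 266 and 94.4 in members and 58.1, 424, 581, 200.3, 400.3 and 251 in Zbtb16-high cells, higher in members of WT DN1 and WT DN2a alone, and 0 of 5 tested stroma markers passed (median 0.32).

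Cd3g had the largest rise under the naming rule. It read 213, 678, 771, 379, 348 and 787 in members against 19.4, 198, 58.1, 0, 19.1 and 94.3 in Zbtb16-high cells. Members were higher in each library, and Zbtb16-high cells of ΔTE DN1 had 0 UMIs, which allowed up to 33.4. On the log2 scale this was 2.81 ± 0.226 (SE; edgeR adjusted p = 2.76e-20), higher in 6 of 6 libraries. Gfra1 read 155, 216, 386, 111, 196 and 566 against 38.7, 54.7, 116, 22.3, 76.2 and 62.9, higher in each library and highest in members from ΔTE DN2b. The change in log2 units was 1.97 ± 0.255 (SE; edgeR adjusted p = 1.11e-09), higher in 6 of 6 libraries. Arpp21 (ENSMUSG00000032503) read 1035, 1461, 1649, 1492, 1589.8 and 2139 against 464, 615, 639, 645, 959 and 409, with every library of members above every library of Zbtb16-high cells. The log2 fold change was 1.26 ± 0.121 (SE; edgeR adjusted p = 2.55e-15), higher in 6 of 6 libraries.

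Lat rose by 1.33 (edgeR adjusted p = 0.000277, higher in 6 of 6 libraries) and Bach2 by 1.31 (edgeR adjusted p = 9.19e-05, higher in 6 of 6 libraries). Frmd6, a FERM-domain protein, Klf3, a transcriptional repressor, the tetraspanins Tspan2 and Tspan13 and the vesicle protein Sytl3 completed the 10 named genes, with log2 fold changes of 1.20, 1.17, 1.16, 1.11 and 1.10, each higher in 6 of 6 libraries. By DESeq2 Lat, Bach2, Frmd6, Klf3 and Sytl3 did not pass. Thy1 read 542, 592, 839, 735, 646 and 975 in members against 135, 349, 639, 223, 330.4 and 534, higher in every library, and rose by 1.00 ± 0.148 (SE; edgeR adjusted p = 1.22e-07), higher in 6 of 6 libraries. Runx1 read 1945, 1934, 1755, 1626, 1723 and 1463 against 1258, 1456, 1492, 935, 1118 and 534, with the widest gap in ΔTE DN2b. It rose by 0.62 ± 0.107 (SE; edgeR adjusted p = 8.09e-06), higher in 6 of 6 libraries, but did not pass without the library block. Dntt (2.66, edgeR adjusted p = 0.000252, higher in 6 of 6 libraries) and Notch1 (1.07, edgeR adjusted p = 1.05e-05, higher in 6 of 6 libraries) also passed and are named after their values were seen, and Dntt did not pass by DESeq2. T-lineage markers had 4 of 8 tested genes higher and 0 lower (median 0.41), beside a median of −0.011 over all genes. The T-lineage specification factors had 1 of 13 higher and 2 lower, Gata3 and Runx3 (median 0.13), and the Ikaros, Runx and BTB factors 2 of 9 higher and 2 lower, Ikzf2 and Runx3 (median 0.073). Runx3 was at −0.57 (edgeR adjusted p = 0.0112, lower in 5 of 6 libraries) and did not pass by DESeq2 or without the library block, and Ikzf2 was at −0.93 (edgeR adjusted p = 9.75e-07, lower in 6 of 6 libraries). Of the CD3, pre-TCR and signalling genes only Cd3g and Lat of 9 tested rose and 0 fell (median 0.34). Themis, named here after its values were seen, read 87.1, 68.5, 193, 156, 152 and 157 in members against 48.4, 164, 96.9, 178, 311 and 424, lower in members of 4 libraries. Its log2 fold change of −0.68 did not pass (edgeR adjusted p = 0.124, lower in 4 of 6 libraries).

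**Figure D4:**
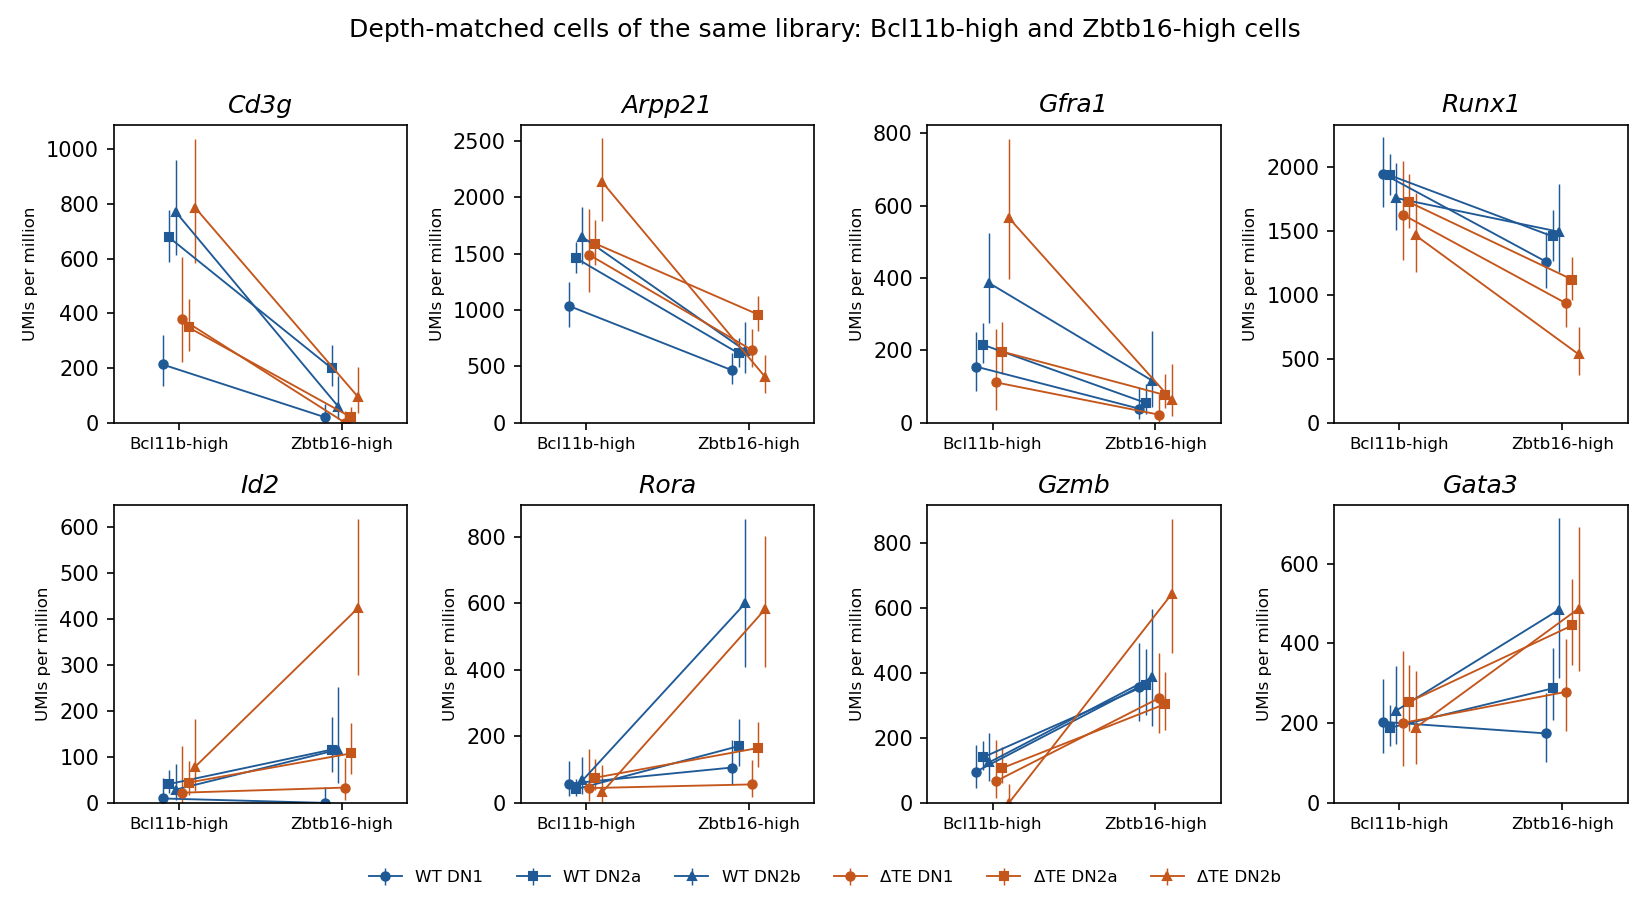
Levels of Cd3g, Arpp21, Gfra1, Runx1, Id2, Rora, Gzmb and Gata3 (CPM) in Bcl11b-positive cells without Zbtb16 and in depth-matched Zbtb16-high cells without Bcl11b, for each of the 6 libraries, with exact Poisson 95% intervals as bars. Cd3g, Arpp21, Gfra1 and Runx1 were higher in members of all 6 libraries, Rora and Gzmb lower in all 6, and Id2 and Gata3 lower in 5.

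Of the 11 ILC and NK transcription factors in the files 5 were tested. Rora (ENSMUSG00000032238), which encodes the nuclear receptor RORα needed by ILC2, read 58.1, 41.1, 67.5, 44.5, 76.0 and 31.5 in members against 106, 171, 601, 55.6, 165 and 581 in Zbtb16-high cells. The gap was narrow from DN1 starts and wide from DN2b starts. The fitted log2 change was −2.11 ± 0.274 (SE; edgeR adjusted p = 1.23e-09), lower in 6 of 6 libraries. Id2, the E protein inhibitor that ILC precursors require, read 9.68, 41.1, 28.9, 22.3, 44.3 and 78.7 against 0, 116, 116, 33.4, 108 and 424, with 0 in Zbtb16-high cells of WT DN1, which allowed up to 29.0. It changed by −1.62 ± 0.339 (SE; edgeR adjusted p = 0.000506), lower in 5 of 6 libraries. Gata3 read 203, 188, 231, 200.5, 253 and 189 against 174, 287, 484, 278, 445 and 487, lower in members everywhere but WT DN1. Its log2 fold change was −0.71 ± 0.178 (SE; edgeR adjusted p = 0.00933), lower in 5 of 6 libraries. Tox, an HMG-box factor of ILC and T-cell development, read 706, 671, 945, 779.6, 842 and 598 against 1064, 1292, 1549.7, 1113, 1436 and 2719, lower in all libraries, and is named after its values were seen. It fell by 0.95 (edgeR adjusted p = 5.62e-10, lower in 6 of 6 libraries). Of the 5 tested, 0 rose and 4 fell (median −0.95). Rora and Tox also passed by DESeq2 and without the library block, while Id2 and Gata3 passed in neither.

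Among genes of effector function and the cell surface, some were lower and Gzma was not. Gzmb read 96.8, 140.3, 125, 66.8, 108 and 0 in members against 358, 362, 387, 323, 305 and 644, with no overlap between the groups over the 6 libraries. The 0 UMIs of members from ΔTE DN2b allowed up to 47.2. In log2 terms the change was −1.85 ± 0.212 (SE; edgeR adjusted p = 1.01e-11), lower in 6 of 6 libraries. Fcer1g read 77.4, 95.8, 19.3, 44.5, 190.0 and 78.7 against 145, 198, 136, 412, 311 and 220.0, lower in each library, and changed by −1.22 ± 0.232 (SE; edgeR adjusted p = 7.49e-05), lower in 6 of 6 libraries. Ccr2, a chemokine receptor, ranged over 19.4 to 110.1 (median 57.3) in members and 38.7 to 770.0 (median 250.1) in Zbtb16-high cells and changed by −2.34 ± 0.248 (SE; edgeR adjusted p = 2.00e-13), lower in 6 of 6 libraries. Itgae, the integrin CD103, changed by −1.84 (edgeR adjusted p = 5.75e-06, lower in 6 of 6 libraries). Gzma, named here after its values were seen, read 755, 904, 540.0, 1292, 1393 and 1164 in members against 726, 745, 523, 1379.7, 1392 and 581, and its log2 fold change of 0.17 did not pass (edgeR adjusted p = 0.652, higher in 4 of 6 libraries once library sizes were scaled).

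Further named genes were lower as well. Hmga2, a chromatin architectural protein of fetal and early progenitors, changed by −2.53 (edgeR adjusted p = 1.41e-10, lower in 6 of 6 libraries). The Rac regulator Chn2 (−1.67), the phosphoinositide phosphatase Inpp4b (−1.36), the glutamate receptor subunit Gria3 (−1.08) and the beta-globin Hbb-bt (−1.08) were each lower in 6 of 6 libraries, the last in a pair of near-identical genes whose reads may not be told apart. Inpp4b did not pass by DESeq2, nor Hbb-bt without the library block. Kit, the stem cell factor receptor of progenitors, fell by 0.99 (edgeR adjusted p = 9.38e-05, lower in 6 of 6 libraries). Of the gamma-delta list 2 genes were tested, of which 0 rose and 1 fell, Maf (−2.04, edgeR adjusted p = 1.22e-07, lower in 5 of 6 libraries). Cd163l1 was higher in members of WT DN1, WT DN2a and ΔTE DN2a and lower in the other libraries, with 346 against 550 in ΔTE DN2b.

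With each cell thinned to 300 UMIs, a UMI of the ILC and NK transcription factors other than Zbtb16 was seen in 27.7% (25.6 to 29.9) of members against 43.0% (40.6 to 45.5) of 1585 Zbtb16-high cells, lower in members of all 6 libraries. T-lineage markers were seen in 64.5% (62.1 to 66.8) of the Zbtb16-high cells, below the members in all 6 libraries but above cells with neither gene in only 4. ILC and NK markers had 0 of 6 tested genes higher and 4 lower (median −1.29), and NK receptors and granule genes 0 of 6 higher and 4 lower (median −1.09). Comparisons with cells with neither gene and with Zbtb16-high cells share the members, so they are not independent of each other.

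To see what goes with the Zbtb16 side of the rule, 482 members were matched on depth with 234 cells with both genes. Those cells had at least 2 Bcl11b UMIs, as members do, and at least 1 of Zbtb16. Bcl11b counts above that floor were not matched. Of 2131 genes tested 0 (0%) passed edgeR's test, 137 had an unadjusted p under 0.05, and DESeq2 called 0 with 42 at an unadjusted p under 0.05. Without WT DN2a 0 of 1083 passed. Cd3g had a log2 fold change of 0.89 (edgeR adjusted p = 0.195, higher in 6 of 6 libraries) and Gzmb of −1.02 (edgeR adjusted p = 0.602, lower in 6 of 6 libraries), and neither passed. T-lineage markers had a median of 0.18 over 6 tested genes and the ILC and NK transcription factors one of −0.29 over 3, beside 0.0043 over all genes. A UMI of the T-lineage markers was seen in 75.9% (70.1 to 81.1) of 245 cells with both genes thinned to 300 UMIs. Some libraries held few such cells, 13 from ΔTE DN1, and the lack of calls does not show that the groups were alike.

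Genes per cell and the mitochondrial share were compared over libraries by an exact two-sided sign-flip permutation test. Both are bounded by the limits that kept the cells, 200 genes and 30% mitochondrial UMIs, in members and comparison cells alike. Matched members had a mean of 462, 425, 455, 467, 466 and 379.9 genes per cell against 460.3, 419.7, 449.8, 466, 467 and 381 in cells with neither gene. The mean difference was 1.84 genes (SD 2.89, higher in 4 of 6 libraries, exact p = 0.25, adjusted 0.281). The mitochondrial share averaged 22.0, 13.4, 22.2, 21.6, 21.6 and 23.6% against 22.1, 14.2, 23.0, 22.2, 21.1 and 23.3%, a mean difference of −0.275 points (SD 0.587, higher in 2 of 6 libraries, exact p = 0.281, adjusted 0.281). The share of ribosomal protein UMIs (83 genes), a measure added after seeing the data, differed by −0.124 points (SD 0.138, higher in 1 of 6 libraries, exact p = 0.0938, adjusted over 3 measures 0.281). None of the 3 measures passed. This rested on the matching of depth. Without it all 3 passed, each at the smallest p that the exact test allows with 6 libraries, with 98.7 more genes (higher in 6 of 6 libraries), a mitochondrial share 0.605 points higher (6 of 6) and a ribosomal share that differed by −0.172 points (0 of 6 higher). With matching but without WT DN2a the mean differences were 1.21 genes (higher in 3 of 5 libraries), −0.164 points (2 of 5) and −0.132 points (1 of 5).

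Last, ΔTE members were set beside WT members from the same start (65 and 197 cells from DN1, 225 and 800 from DN2a, 149 and 456 from DN2b). With 1 library per condition and 1 pool of mice per genotype no test was made, and genotype cannot be told apart from pool, culture and library. A gene was counted when the members differed over 1.5-fold in one direction in all 3 starts, with at least 10 UMIs per start. Of 3974 genes 73 (1.84%) met this, 14 higher (0.352%) and 59 lower (1.48%) in ΔTE. Without the DN2a start, whose WT library stood apart, the direction had to hold in DN1 and DN2b alone, and 139 were higher and 215 lower. The median log2 ratios of all these genes were −0.014, −0.17 and −0.052 for DN1, DN2a and DN2b. Poisson 95% intervals, which cover counting error only, lay on one side of 0 in all 3 starts for 4 genes, named after their values were seen, which were Gzma, Mid1, Prkca and mt-Rnr1.

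Mid1, a microtubule-associated ubiquitin ligase and the gene with the lowest mean ratio, read 44.3, 38.0 and 44.1 in ΔTE members against 860.2, 472 and 384 in WT members. ΔTE was far lower from each start. The log2 ratios, with their Poisson 95% intervals, were −4.28 (−7.34 to −2.39), −3.63 (−5.10 to −2.49) and −3.12 (−5.02 to −1.73), and cells with neither gene gave −3.33, −2.45 and −3.28. Gzma, named here after its values were seen, read 1285, 1393 and 1169 in ΔTE members against 787, 881 and 646 in WT members, higher from each start. Its log2 ratios were 0.71 (0.22 to 1.18), 0.66 (0.42 to 0.90) and 0.86 (0.51 to 1.20), beside 0.61, 0.73 and 1.08 in cells with neither gene. The gap in both genes was therefore present outside the members as well.

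The other genes with the lowest mean ratios rested on few UMIs. They were Farsb, a subunit of phenylalanine-tRNA ligase (−2.41 (−7.80 to 0.28), −1.21 (−2.49 to −0.13) and −3.54 (−8.87 to −0.98); 1, 8 and 1 UMIs in ΔTE and 16, 54 and 41 in WT members), Col1a2, a collagen chain of the stroma list (−1.87 (−7.30 to 0.91), −2.38 (−4.04 to −1.09) and −1.08 (−4.26 to 1.02); 1, 5 and 2 UMIs in ΔTE and 11, 76 and 15 in WT members), Llph (−1.87 (−7.30 to 0.91), −1.33 (−3.71 to 0.41) and −1.98 (−7.39 to 0.73); 1, 3 and 1 UMIs in ΔTE and 11, 22 and 14 in WT members), and Dynll2, a dynein light chain (−1.73 (−7.17 to 1.08), −0.94 (−2.67 to 0.45) and −2.35 (−7.73 to 0.32); 1, 5 and 1 UMIs in ΔTE and 10, 28 and 18 in WT members). The intervals spanned 0 in all 3 starts for Llph and Dynll2, in DN1 for Farsb, and in DN1 and DN2b for Col1a2. Cells with neither gene gave −0.012, −0.13 and 0.21 for Farsb, −0.83, −0.70 and −1.50 for Col1a2, 0.17, −0.25 and 0.33 for Llph and −0.041, −0.065 and 0.18 for Dynll2. Their intervals lay below 0 in all 3 starts for Col1a2 and spanned 0 in all 3 for Farsb, Llph and Dynll2.

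The genes with the highest mean ratios rested on few UMIs as well. They were Cpne2, a calcium-binding copine (2.76 (0.92 to 4.91), 1.02 (0.07 to 1.94) and 0.71 (−0.97 to 2.20); 9, 18 and 6 UMIs in ΔTE and 4, 26 and 13 in WT members), Aim2, a sensor of cytosolic DNA (1.78 (0.13 to 3.48), 0.67 (−0.24 to 1.54) and 0.92 (−0.53 to 2.24); 8, 18 and 8 UMIs in ΔTE and 7, 33 and 15 in WT members), Cd244a, a receptor of NK and T cells (1.18 (−0.25 to 2.55), 0.96 (0.02 to 1.88) and 1.65 (0.08 to 3.20); 9, 18 and 8 UMIs in ΔTE and 12, 27 and 9 in WT members), Mfsd5, a membrane transporter (1.18 (−0.63 to 2.89), 0.81 (−0.93 to 2.41) and 1.14 (−0.81 to 2.94); 6, 6 and 5 UMIs in ΔTE and 8, 10 and 8 in WT members), and Zfp984, a zinc finger gene of a large similar family (1.59 (−0.15 to 3.33), 0.76 (−0.46 to 1.91) and 0.68 (−1.19 to 2.33); 7, 11 and 5 UMIs in ΔTE and 7, 19 and 11 in WT members). The intervals spanned 0 in all 3 starts for Mfsd5 and Zfp984, in DN2a and DN2b for Aim2, in DN1 for Cd244a and in DN2b for Cpne2. Cells with neither gene gave 1.05, 0.81 and 0.98 for Cpne2, −0.081, −0.13 and −0.10 for Aim2, 0.055, 0.54 and 1.06 for Cd244a, −0.18, −0.067 and −0.53 for Mfsd5 and 0.073, 0.010 and 0.34 for Zfp984. Their intervals lay above 0 in all 3 starts for Cpne2 and in DN2a and DN2b for Cd244a, and spanned 0 in all 3 starts for Aim2, Mfsd5 and Zfp984, for which no direction outside the members can be given.

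In the T-lineage marker list 0 of 6 measured genes passed the fold in either direction, with medians of 0.31, −0.23 and 0.053 in the 3 starts. The CD3, pre-TCR and signalling genes had 0 of 8, with medians of 0.77, 0.16 and 0.15, and the ILC and NK transcription factors 0 of 4, with medians of 0.010, 0.45 and −0.50. Among the Ikaros, Runx and BTB factors 1 of 9, Runx2, was lower, and it is named after its values were seen.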

How the data were processed

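The deposited files, as the authors submitted them, hold raw UMI counts per gene and barcode for 6 libraries, 28048 genes each, and gene symbols paired with Ensembl identifiers. The submitters' notes name mm9, so no coordinates are given. Cells were kept at 200 genes or more, 2000 UMIs or fewer and 30% mitochondrial UMIs or less. No doublet caller was run, and the 2000 UMI limit is the only guard against doublets. With library medians of 386 to 485 UMIs per cell, a doublet can lie under that limit. The members and the 22 gene lists were chosen with earlier results of these data known.

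Comparison cells were drawn within each library in bins of 0.1 log2 units of depth, counting UMIs other than Bcl11b and Zbtb16, up to 5 per member. UMIs were summed per library and group, and genes with at least 60 UMIs and a UMI in at least 15 cells were tested genome-wide with edgeR 4.0.16 (TMM, quasi-likelihood test, library as a block, Benjamini-Hochberg adjustment). Bcl11b and Zbtb16 were not tested. A gene passed at an adjusted p under 0.05. The named genes are the 10 largest and 10 smallest log2 fold changes among genes that passed, went one way in all 6 libraries and had at least 100 UMIs. To these come list genes that passed against cells with neither gene, and a few list genes whose role matters. For the deletion they are the 5 highest and 5 lowest mean ratios past 1.5-fold. A count of 0 entered a ratio as 3 counts. Of the listed genes, 4 receptor constant genes of the gamma-delta list and Scart2 were not found by symbol, and 5830411N06Rik, which carries Scart2 as a synonym, was not counted in the list.

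Alternatives were no TMM, DESeq2 1.42.0, no gene filter, no library block, no matching, 1 comparison cell per member, another seed, other limits on Bcl11b, depth, genes and mitochondrial share, cells of other lineages left out and each library left out. Chosen after seeing the data were leaving out stroma-marker cells, no library block against Zbtb16-high cells and cells with both genes, ratios with counts of 0 left at 0, the deletion without the DN2a start, the measures per cell without WT DN2a, and the ribosomal protein share. The other software was R 4.3.3, Python 3.11.15, numpy 2.4.6, pandas 2.3.3, scipy 1.17.1 and matplotlib 3.10.9.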

Additional observations from a re-analysis of the deposited data

Results flagged for a closer look

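Barcodes outside the kept cells also met the rule of at least 2 Bcl11b and 0 Zbtb16 UMIs, in numbers above what a count of 0 allows. Over the mitochondrial limit they numbered 100 in WT DN1, 6 in WT DN2a, 244 in WT DN2b, 18 in ΔTE DN1, 50 in ΔTE DN2a and 175 in ΔTE DN2b, or 593 of 23136 barcodes (2.56%), beside 1892 of 60671 kept cells (3.12%). In ΔTE DN2b more such barcodes lay over the limit than the 149 kept. Over 2000 UMIs, 102 of 1700 barcodes met it, and under 200 genes 879 of 1084623. These barcodes entered no comparison, and how they compare with the members was not tested.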

How the results depend on the processing

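Against cells with neither gene, the 667 calls became 292 with 1 comparison cell per member, 408 at up to 1000 UMIs, 199 (23 higher, 176 lower) at up to 20% mitochondrial UMIs, 1341 with members at 1 or more Bcl11b UMI, 202 at 3 or more, 174 by DESeq2, 130 without the library block, 42 without cells of other lineages and, chosen after seeing the data, 104 without stroma-marker cells. Leaving out each library gave 249 (without WT DN2a) to 664. Both directions lost calls, from 153 higher and 514 lower to 27 and 15 without cells of other lineages and 73 and 31 without stroma-marker cells, so the higher part went from 22.9 to 64.3 and 70.2% because more of the lower calls fell away. Against Zbtb16-high cells, 105 became 172 without matching, 33 by DESeq2, 57 without the library block (chosen after seeing the data), and 64 (without ΔTE DN2a) to 99 with a library left out. Against cells with both genes, 0 became 1 with another seed (Aff3), 1 without TMM (Angpt1), 5 without matching (Angpt1, Gria3, Cd3g, Tspan13 and Uck2) and 0 to 1 with a library left out (Angpt1 without WT DN2b or ΔTE DN2b), genes named after their values were seen. The cause was not tested. The named genes gave 966 results with the same direction and call, 246 that no longer passed and 3 reversed against cells with neither gene (Ccnjl −0.079 at 3 or more Bcl11b UMIs, Gzma −0.019 and Zeb2 0.13 without cells of other lineages), and 375, 51 and 0 against Zbtb16-high cells. Of 6 results for the named genes of the deletion that could be computed, 4 stayed as they were and 2 no longer met the fold in all 3 starts (Aim2 with matched depth and Gzma at 3 or more Bcl11b UMIs). Member shares became 0.704, 2.12, 4.24, 0.172, 0.869 and 2.08% thinned to 300 UMIs and 2.31, 5.55, 11.5, 0.821, 2.42 and 5.33% at 300 or more genes, with 7.97% for WT DN2b at up to 1000 UMIs and 1.52% for ΔTE DN2a and 3.27% for ΔTE DN2b at up to 20% mitochondrial UMIs. Unmatched, members had 98.7 more genes per cell and a mitochondrial share 0.605 points higher, the reverse of the matched sign, and all 3 measures passed. The deletion counts became 9 higher and 19 lower of 1910 genes with matched depth, 1 and 8 of 697 at 3 or more Bcl11b UMIs, 14 and 63 with counts of 0 left at 0, and 139 and 215 without the DN2a start, where fewer starts had to share a direction. Without WT DN2a, genes per cell differed by 1.21 and the mitochondrial share by −0.164 points, too few libraries for the test to pass. Depth limits genes with few UMIs, above all from ΔTE DN1.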
